A study of Homo sapiens with 34 samples.

Results

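The transcriptional response of NALM6 cells to etoposide was followed over all gene symbols with enough reads. NALM6 is a human pre-B cell line derived from an acute lymphoblastic leukemia. The comparison set 3 libraries from cells given 10 µM etoposide for 4 hours against 3 libraries from untreated NALM6 cells, taken by the titles in the labels. These 6 libraries belong to a series of 34, 17 with etoposide and 17 without, from the lines NALM6, 697, RAMOS, JURKAT, THP1 and U937. No vehicle control is named in the labels, and nothing says whether the replicates were separate cultures, so p-values cover only how far these libraries vary, which can be technical. NALM6 is 1 line, with 1 dose and 1 time. Of 23368 gene symbols listed, 12589 had enough reads to be tested, and 10779 did not. Of the genes left out, 5574 had no read in any of the 6 libraries, 2141 had reads in etoposide libraries alone and 344 in control libraries alone. At the edge of the filter lay C19orf26, tested with a level of 0.663 CPM, counts per 1 M counts, in the library that ranked 3 from the top, and ANGPT2, left out with 0.644 CPM in that rank.

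Etoposide holds DNA topoisomerase II on the DNA it has cut, which leaves protein-linked double-strand breaks. The kinase ATM answers such breaks by way of p53, which stops the cell cycle and can start apoptosis, and by way of NF-kB, which switches on survival and inflammatory genes. Pre-B cells also make double-strand breaks of their own when the RAG1 and RAG2 enzymes cut immunoglobulin genes, and they must leave the cell cycle to do so.

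Total counts were 13.1 to 15.8 M per etoposide library and 11.1, 34.2 and 15.1 M in controls 1, 2 and 3. At a common depth equal to the smallest library, 15700 to 15786 genes had a read in the etoposide libraries, against 13903 to 14008 in the controls, and the groups did not overlap. All 3 etoposide libraries were sequenced in another library pool than the 3 controls, per the file names, so pool and treatment cannot be told apart within NALM6. The file names of the NALM6 etoposide libraries alone also carry the tag WT, which the labels do not explain, and whether both groups came from the same stock of cells is not stated. That pool also held the JURKAT libraries and the etoposide libraries of 697, another pre-B line. To see how far reads of these lines could appear in NALM6, genes under 0.1 CPM in NALM6 controls and over 20 CPM in both groups of the other line were read in the NALM6 etoposide libraries. The 46 such genes of 697 had a median of 0.0769% of their 697 etoposide level there, and the 170 such genes of JURKAT had a median of 0.110% of their JURKAT etoposide level. Genes of those sets above 5% numbered 3 for 697 and 4 for JURKAT, the highest being VAV2 in both. The summed level of 14 pre-B markers was 2595 to 2659 CPM in etoposide libraries and 6778 to 6867 CPM in controls, and all 14 had over 10 reads in every library. Among 10 T cell markers, the sum was 56.3 to 58.9 CPM with etoposide against 70.3 to 73.0 CPM without, most of it ZAP70 and LCK. CD3G and TRAT1 had no read in any of the 6 libraries, while CD3D, CD5 and CD28 had 1 to 6 reads in each etoposide library and none in a control, and CD3E had 2 to 9 reads in each etoposide library and 1 in all controls. Over 44 genes above 50 CPM in JURKAT, under 0.2 CPM in 697 and chosen for at most 1 read each over the NALM6 controls, the etoposide libraries held 52 to 60 reads each and the controls 0 to 4. Sums over 12 myeloid markers were 33.5 to 35.5 CPM with etoposide and 14.5 to 17.1 CPM without, with CSF3R and ELANE at 0 throughout. ITGAM, an integrin chain of myeloid cells, had 5.096, 8.59 and 8.27 CPM with etoposide and 0, 0.03096 and 0 CPM in controls, and averaged 75.3 CPM in the etoposide libraries of 697; CD33 and CD68 also rose (log2 0.89 and 0.44). The part of such reads in the results was not tested. In bulk RNA, fewer cells of a type and less RNA per cell cannot be told apart, and CPM give shares of a library and not amounts per cell.

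With edgeR's quasi-likelihood test and Benjamini-Hochberg adjustment, 5195 genes (41.3% of those tested) were called up at an adjusted p under 0.05 and 5068 (40.3%) were called down. Among these, 2583 genes (20.5%) rose and 1243 genes (9.87%) fell by 2-fold or more. The median log2 fold change over all tested genes was 0.01. All 3 etoposide libraries lay above every control for 41.5% of genes and below every control for 40.2%. Counts of list members below are to be read against these shares, since most expressed genes moved. A list member whose controls all lay under the edge of the filter passed it through the etoposide libraries alone, so its call is a description.

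The drug's targets fell at the RNA level. TOP2A, the topoisomerase II of dividing cells, had 262, 275 and 252 CPM with etoposide and 731, 757 and 799 CPM in controls, a log2 fold change of -1.54 ± 0.05 (standard error). TOP2B, the form also made in resting cells, had 384, 424 and 379.9 CPM with etoposide and 1258, 1238 and 1302 CPM in controls, a change of -1.68 ± 0.04. In both genes every etoposide library lay under every control. Of the 8 topoisomerases and TDP enzymes tested, 6 were called down and 2 up. TDP2, which removes stalled topoisomerase II from DNA ends, fell by 0.78 on the log2 scale, and TDP1, which acts on trapped topoisomerase I, fell by 1.04. TOP1 fell by 0.74, while TOP3B, with 91.6, 88.1 and 94.3 CPM with etoposide and 66.7, 52.1 and 56.3 CPM in controls, and TOP3A (log2 0.21) rose.

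**Figure D1:**
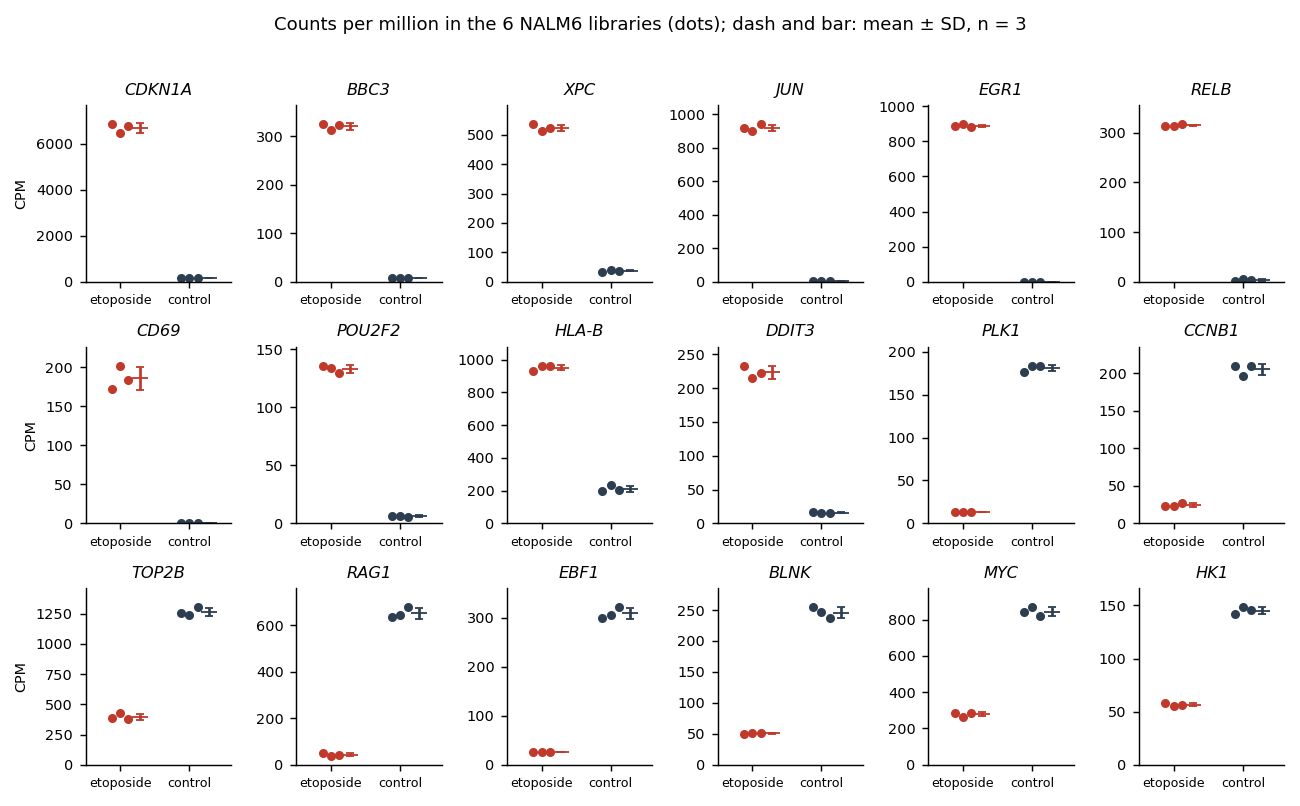
CPM (vertical axis, from 0) of 18 genes in the 3 etoposide and 3 control libraries of NALM6, etoposide on the left; each dot is a library, and the dash with its bar is the mean ± SD. In every panel the etoposide and control libraries lie apart; CDKN1A stands at 6849, 6459 and 6771 CPM with etoposide against 167, 168 and 163 CPM in controls, and PLK1 at 13.5, 12.9 and 12.98 CPM against 177, 184 and 183 CPM.

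The p53 programme rose at nearly every tested member. Of 23 tested genes of arrest and feedback, 22 were called up, 19 of them by at least 2-fold, with a median log2 fold change of 2.69; CYFIP2, which helps to drive actin branching, was the 1 not called. CDKN1A, the gene of p21, an inhibitor of cyclin-dependent kinases, had 6849, 6459 and 6771 CPM with etoposide and 167, 168 and 163 CPM in controls. Its log2 fold change was 5.33 ± 0.04 (adjusted p = 5.7e-54). MDM2, the ubiquitin ligase that returns p53 to low levels, had 1274, 1468 and 1389 CPM with etoposide and 212, 206 and 225 CPM in controls, a change of 2.69 ± 0.05. Groups lay far apart in both genes, and the spread within a group was small beside the change. PHLDA3, an inhibitor of AKT signalling, had 331, 313 and 336 CPM with etoposide and 5.84, 6.47 and 7.65 CPM in controls, and GADD45A, a stress sensor that binds PCNA, had 437, 448 and 444 CPM with etoposide and 24.3, 27.1 and 22.9 CPM in controls. EPHA2, a receptor kinase, had no read in any control and 14.6, 14.8 and 13.9 CPM in the etoposide libraries, at least 276-fold higher by a floor of 3 reads over the controls. GDF15, a secreted stress cytokine, and PLK2, a kinase of the Polo family, also had no control read and were at least 186-fold and at least 73.5-fold higher. EPHA2, GDF15 and PLK2 passed the filter through the etoposide libraries alone, so their part in the count of calls is a description.

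Among 16 tested p53 targets in apoptosis, 14 were called up, all 14 by at least 2-fold, and the median was 3.04. EDA2R, one of them, had no control read and passed the filter through the etoposide libraries alone, so its call is a description. BBC3, which encodes the BH3-only protein PUMA, had 325, 312 and 324 CPM with etoposide and 8.003, 8.02 and 7.86 CPM in controls (5.33 ± 0.07). PMAIP1, the gene of NOXA, had 379.6, 393 and 369.6 CPM with etoposide and 104, 90.004 and 88.3 CPM in controls, and BAX, the pore former of mitochondria, had 364, 351 and 351 CPM with etoposide and 105, 109 and 96.3 CPM in controls. Both rose, by 2.03 ± 0.05 and 1.77 ± 0.05 on the log2 scale. TNFRSF10B, the death receptor DR5, stood at 632, 635 and 644 CPM with etoposide and 43.2, 44.4 and 45.4 CPM in controls. FDXR, a mitochondrial reductase, and DRAM1, a lysosomal protein linked to autophagy, rose by 3.82 and 3.94. BID, which links death receptors to mitochondria, was the only member called down, at 52.97, 48.7 and 48.8 CPM with etoposide and 83.5, 81.4 and 82.6 CPM in controls (-0.72 ± 0.06), and APAF1, the core of the apoptosome, was not called (0.00 ± 0.07). All 6 p53 targets of nucleotide excision repair and lesion bypass were called up. XPC, which finds damaged bases, had 535, 513 and 523 CPM with etoposide and 35.1, 38.8 and 37.2 CPM in controls (3.81 ± 0.05), DDB2, which finds ultraviolet lesions, changed by 2.99 ± 0.06, and POLH, a bypass polymerase, by 2.37 ± 0.05. PCNA, the sliding clamp of the fork, changed least of the 6 (0.35 ± 0.04).

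The BCL2 family and the death receptor pathway, lists that share members such as BBC3 and TNFRSF10B with the p53 targets, moved in both directions. Of 15 tested BCL2 family genes, 9 were called up, 3 down and 3 not at all, with a median of 0.59. BMF, a BH3-only gene outside the classic p53 list, had 29.5, 25.3 and 30.3 CPM with etoposide and 4.71, 5.202 and 6.05 CPM in controls (2.41 ± 0.12). BCL2, the founding survival gene, fell by 1.30 on the log2 scale, to 44.7, 43.3 and 43.7 CPM with etoposide and 105, 111 and 109 CPM in controls. The survival gene MCL1 rose (0.86 ± 0.05), whereas BCL2L1, the gene of BCL-XL, was not called (0.06 ± 0.06). In the death receptor pathway 10 of 14 tested members were called up and 1 down. FAS had 134, 157 and 149.9 CPM with etoposide and 11.9, 11.5 and 10.4 CPM in controls, and its downstream inhibitor CFLAR had 31.5, 34.98 and 33.8 CPM with etoposide and 13.6, 12.1 and 12.7 CPM in controls; all etoposide values of both lay above all control values. BIRC3, the NF-kB target cIAP2, had 1367 reads over the etoposide libraries and 1 read over the controls, a ratio of 1674 by library size (95% exact counting interval 299.9 to 66161). XIAP, the inhibitor of effector caspases, was the member that fell (-0.99 ± 0.07).

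Immediate-early transcription factors, most with few reads in controls, rose. Of 13 tested AP-1 factors, 11 were called up and 0 down, 10 of them by at least 2-fold. The EGR and NR4A list, which also holds the factor SRF and the corepressor NAB1, had 8 of 10 tested members called up and 1 down. EGR2, EGR3, EGR4, NR4A3 and the AP-1 factor FOSL1 had every control under the edge of the filter. They passed it through the etoposide libraries alone, so their calls are a description. EGR1, a zinc finger factor of the growth factor response, had 885, 897 and 880.4 CPM with etoposide and 1.04, 0.991 and 0.835 CPM in controls. ATF3, a stress-induced partner of AP-1, had 1749, 1789.6 and 1759 CPM with etoposide and 5.93, 6.16 and 7.51 CPM in controls, and JUN, the core AP-1 subunit, had 917, 902 and 940.4 CPM with etoposide and 7.25, 6.19 and 5.56 CPM in controls. The log2 fold changes of EGR1, ATF3 and JUN were 9.84 ± 0.08, 8.09 ± 0.07 and 7.20 ± 0.07, and in all 3 every etoposide library lay far above every control. FOS, with 117, 118 and 124 CPM with etoposide and 0.753, 0.495 and 0.765 CPM in controls, and JUNB, with 602, 614 and 621 CPM with etoposide and 25.05, 28.2 and 28.4 CPM in controls, belonged to the same group. EGR3 had 1 read over the controls and 1909 over the etoposide libraries, a ratio of 2338 (95% exact counting interval 419 to 92374). NR4A1, an orphan receptor induced by antigen receptor signals, rose by 4.70 ± 0.08. NAB1, a corepressor of EGR proteins, was the member that fell (-0.39 ± 0.08). Among 15 other tested immediate-early genes 14 were called up, among them IER2 (4.18 ± 0.05) and ZFP36 (2.88 ± 0.06), which encodes a protein that destabilises AU-rich mRNAs. HES1, also called up, had no control read and passed the filter through the etoposide libraries alone, so its call is a description. KLF factors split, with 5 of 10 called up and 4 down, KLF10 at 2.08 ± 0.07 and KLF13 at -1.44 ± 0.06. Of 14 MAP kinase phosphatases and Sprouty genes, which damp MAP kinase signals, 10 were called up and 2 down; DUSP16 changed by 2.77 ± 0.06, while DUSP6, the ERK phosphatase, was not called (0.02 ± 0.07).

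The promoters of EGR1 and SRF are shown because both hold the CArG box, the element that the factor SRF binds in serum response genes. They run over 300 bases, 250 before and 50 after the RefSeq gene start, on build GRCh38.p14, and the capitals mark CArG boxes. EGR1 lies on the plus strand at chr5:138465229-138465528, with boxes beginning at positions -105 and -83 from the start, and SRF, which encodes the binding factor and changed by 0.80 ± 0.05, at chr6:43171019-43171318, plus strand, with boxes at -30 and -10.
EGR1: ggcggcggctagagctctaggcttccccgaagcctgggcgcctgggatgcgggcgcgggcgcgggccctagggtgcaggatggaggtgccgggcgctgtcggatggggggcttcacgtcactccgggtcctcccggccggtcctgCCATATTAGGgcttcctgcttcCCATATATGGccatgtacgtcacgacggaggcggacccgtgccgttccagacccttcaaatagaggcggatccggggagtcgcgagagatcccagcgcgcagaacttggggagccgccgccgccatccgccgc
SRF: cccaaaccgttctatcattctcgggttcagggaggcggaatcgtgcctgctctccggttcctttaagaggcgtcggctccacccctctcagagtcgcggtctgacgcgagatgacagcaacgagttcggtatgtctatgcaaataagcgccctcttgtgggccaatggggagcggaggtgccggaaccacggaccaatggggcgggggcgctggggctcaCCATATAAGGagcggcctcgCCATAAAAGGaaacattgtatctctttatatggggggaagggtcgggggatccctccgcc
A CArG box on either strand was found in 2 of 8 promoters of the EGR and NR4A list, those of EGR1 and SRF. It was found in 0 of 10 AP-1 promoters. The share was 1.29% over all 27305 promoters and 1.08% over those of tested genes. The cyclic AMP element, TGACG followed at once by TCA, was found in 2 of 10 AP-1 promoters, those of JUND and MAFF. It was found in 0 of 8 promoters of the EGR and NR4A list, against 1.98% of all and 3.27% of those of tested genes. A match is a description of letters and shows no binding.

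All 20 tested NF-kB subunits, inhibitors and adaptors were called up, 16 of them by at least 2-fold, with a median of 2.05. RELB, a subunit of the alternative pathway, had 314, 314 and 317 CPM with etoposide and 2.07, 4.89 and 3.48 CPM in controls, and NFKB2, its partner, had 609, 580.1 and 599.8 CPM with etoposide and 24.95, 23.9 and 20.6 CPM in controls. TNFAIP3, the gene of the feedback inhibitor A20, had 1803, 1767 and 1808 CPM with etoposide and 102, 100.3 and 108 CPM in controls, and NFKBIA, which encodes the inhibitor of the classical pathway, had 531, 511 and 504 CPM with etoposide and 50.9, 56.97 and 51.3 CPM in controls. The log2 fold changes of RELB, NFKB2, TNFAIP3 and NFKBIA were 6.31 ± 0.10, 4.69 ± 0.06, 4.12 ± 0.05 and 3.27 ± 0.05, and no control reached an etoposide library. BCL3, a nuclear cofactor of NF-kB, had 99.1, 91.1 and 89.1 CPM with etoposide and 1.601, 0.6502 and 1.5998 CPM in controls (6.43 ± 0.14). RELA, the main activating subunit, changed least, with 192, 178 and 195 CPM with etoposide and 143, 162 and 158 CPM in controls (0.28 ± 0.05).

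The promoters of BCL3 and TNFAIP3 are printed with their kappaB sites in capitals, since they were the members with such a site that changed most. BCL3 lies at chr19:44748458-44748757, plus strand, with its site at position 2 after the start, and TNFAIP3 at chr6:137867009-137867308, plus strand, with sites at -67 and -55 (RefSeq, GRCh38.p14).
BCL3: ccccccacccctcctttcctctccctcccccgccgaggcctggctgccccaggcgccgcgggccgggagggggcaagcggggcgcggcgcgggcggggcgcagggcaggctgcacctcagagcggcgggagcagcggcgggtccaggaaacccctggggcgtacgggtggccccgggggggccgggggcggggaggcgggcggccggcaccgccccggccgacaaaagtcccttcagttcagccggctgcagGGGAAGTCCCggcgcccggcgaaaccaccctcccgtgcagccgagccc
TNFAIP3: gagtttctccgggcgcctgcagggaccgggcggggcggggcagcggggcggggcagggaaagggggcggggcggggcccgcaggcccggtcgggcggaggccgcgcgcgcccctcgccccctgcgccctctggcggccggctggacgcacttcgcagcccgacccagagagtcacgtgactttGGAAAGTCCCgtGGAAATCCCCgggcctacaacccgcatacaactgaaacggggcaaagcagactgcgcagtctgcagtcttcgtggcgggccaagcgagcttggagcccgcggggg
The site, on either strand, was found in 8 of the 18 NF-kB list promoters in the table (44.4%), against 5.72% of all promoters and 6.40% of those of tested genes. These 8 were BCL3, TNFAIP3, MAP3K8, NFKBIZ, NFKBIA, REL, NFKB1 and TRAF3.

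Secreted and surface products of activated lymphocytes also rose. Only 10 of 28 listed chemokines and cytokines had enough reads to be tested, and all 10 were called up; a gene that passes the filter through the etoposide libraries alone had to differ, so this count is a description. CCL4, a chemokine of activated lymphocytes, had no control read and 43.02, 41.8 and 39.5 CPM with etoposide, at least 794-fold higher. Reads of CCL4 and CCL3 may be shared with near-identical gene copies, so their levels are uncertain. CSF1, the macrophage growth factor, had 15.5, 17.9 and 17.3 CPM with etoposide and 0.0942, 0.03096 and 0.417 CPM in controls, and IL32 and EBI3 had no control read and were at least 91.02-fold and at least 93.5-fold higher. TNF, LTB and IL6 were listed at 0 in all 3 etoposide libraries and in all 3 controls. Whether a listed 0 means no RNA, or reads lost in mapping or counting, was not tested. Of 19 tested co-stimulatory, activation and adhesion genes, 15 were called up and 1 down, with a median of 3.81. Without control replicate 2 or etoposide replicate 2, 2 were called down. CD80 and TNFRSF9, both called up, had no control read. TNFRSF4 and CD40, also called up, had every control under the edge of the filter. CD80, TNFRSF9, TNFRSF4 and CD40 passed the filter through the etoposide libraries alone, so their calls are a description. CD69, an early activation antigen, had 172, 202 and 184 CPM with etoposide and 0.565, 0.495 and 0.696 CPM in controls, CD40, the receptor for T cell help, had 31.6, 32.8 and 32.8 CPM with etoposide and 0, 0.155 and 0.139 CPM in controls, and ICAM1, an adhesion ligand, had 525, 522 and 523 CPM with etoposide and 22.5, 23.995 and 21.4 CPM in controls. CD83 had 258, 279.7 and 279 CPM with etoposide and 24.01, 22.7 and 23.4 CPM in controls, and in all 4 genes the groups did not overlap. TNFRSF13C, the BAFF receptor, fell (-0.56 ± 0.13). Among 15 trafficking receptors and RGS genes 4 were called up and 9 down, 5 of them by at least 2-fold. CCR7, the lymph node homing receptor, had 21.5, 19.97 and 19.7 CPM with etoposide and 0.0942, 0.248 and 0.487 CPM in controls, and RGS16, a brake on G protein signals, had 2476, 2319.9 and 2390.0 CPM with etoposide and 160.1, 158 and 152 CPM in controls. S1PR1, the receptor for exit from lymphoid tissue, fell to 2.97, 2.66 and 2.54 CPM with etoposide and 6.497, 9.32 and 8.14 CPM in controls (-1.58 ± 0.19), and RGS14 fell by 2.56. The count of those lower by at least 2-fold was 3 without control replicate 2.

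The pre-B programme fell. All 11 tested genes of V(D)J recombination and the pre-B receptor were called down, 8 of them by at least 2-fold, with a median of -1.46. RAG1, the recombinase that cuts immunoglobulin genes, had 50.8, 38.9 and 42.2 CPM with etoposide and 634, 644 and 678 CPM in controls (-3.89 ± 0.07). Its partner RAG2 had 40.1, 44.3 and 42.4 CPM with etoposide and 208, 202 and 209 CPM in controls (-2.29 ± 0.06). DNTT, which adds untemplated bases at the joints, had 423, 409 and 403 CPM with etoposide and 1525, 1446 and 1498 CPM in controls, and VPREB1, a piece of the surrogate light chain, had 95.2, 84.5 and 87.1 CPM with etoposide and 316, 310.0 and 286 CPM in controls. No library of either group reached the other in these 4 genes. IGLL1, the second piece of the surrogate light chain, fell less (-0.46 ± 0.05), as did CD79A (-0.45 ± 0.05) and CD79B (-0.84 ± 0.05), the signalling chains of the receptor. Of 29 B-lineage transcription factors, 21 were called down, 15 of them by at least 2-fold, and 7 were called up. EBF1, the factor that commits cells to the B lineage, had 26.7, 26.1 and 25.6 CPM with etoposide and 299.7, 305 and 321 CPM in controls (-3.56 ± 0.06). PAX5, which holds that identity, had 174, 154 and 167 CPM with etoposide and 443, 545 and 529 CPM in controls (-1.62 ± 0.06). LEF1, TCF4 and IKZF1 fell by 2.48, 2.15 and 1.83 on the log2 scale. Against the median, POU2F2, which encodes the octamer factor OCT2 of mature B cells, had 136, 134 and 129.7 CPM with etoposide and 6.31, 6.66 and 5.22 CPM in controls (4.42 ± 0.08), and PRDM1, the driver of plasma cell differentiation, had 16.7, 18.03 and 14.5 CPM with etoposide and 1.79, 2.38 and 2.16 CPM in controls (2.90 ± 0.16). IRF4 (-0.40 ± 0.05) and XBP1 (-0.65 ± 0.04), 2 other factors of plasma cells, fell.

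Of 25 tested genes of B cell receptor signalling, 17 were called down, 12 of them by at least 2-fold, and 5 up. BLNK, the adaptor that links SYK to calcium signals, had 49.7, 51.9 and 51.1 CPM with etoposide and 254, 247 and 236 CPM in controls (-2.27 ± 0.05), and the kinases SYK and BTK fell by 1.84 and 1.79. CD24, a glycoprotein of immature B cells, had 132, 135 and 136 CPM with etoposide and 714, 697 and 707 CPM in controls, and CD22, an inhibitory lectin, had 26.1, 25.8 and 26.5 CPM with etoposide and 111, 109.6 and 109 CPM in controls. TLR10, a receptor of B cells, had 0.667, 0.787 and 0.508 CPM with etoposide and 9.79, 11.4 and 13.01 CPM in controls and changed by -4.10 ± 0.23. VAV2, an exchange factor for small GTPases, went against the rest, with 10.6, 10.5 and 12.3 CPM with etoposide and 0.0942, 0.155 and 0 CPM in controls (6.64 ± 0.32). TCL1A, a co-activator of AKT made in early B cells, was among the falling genes with the highest control CPM, at 362, 329.5 and 350.3 CPM with etoposide and 2026, 2124 and 1985 CPM in controls (-2.56 ± 0.04). Of 16 listed MHC class I genes only 9 had enough reads to be tested, of which 5 were called up and 3 down. Among those left out, TAP1, TAP2 and PSMB9, which are not HLA genes, had 0 to 3 reads per library. Whether reads of such genes were lost in mapping or counting was not tested. HLA-B had 934, 963 and 959 CPM with etoposide and 201, 231 and 202 CPM in controls (2.17 ± 0.05) and HLA-C had 255, 228 and 232 CPM with etoposide and 108, 113 and 107 CPM in controls (1.11 ± 0.05), though reads of HLA genes can be split between near-identical family members. CIITA, the master regulator of MHC class II, had 318, 320.3 and 322 CPM with etoposide and 94.2, 96.9 and 95.99 CPM in controls (1.74 ± 0.05). Only 3 of the 13 members of the class II list had enough reads to be tested, CIITA, CD74 and HLA-DRA, and all 3 were called up. The other 10, all of them HLA genes, were not tested. B2M, the light chain of class I, was called down at a small change (-0.14 ± 0.04), as were ERAP1 (-0.17 ± 0.05) and ERAP2 (-0.89 ± 0.06). The number called down was 1 under scaling by library totals or by the upper quartile, and with at least 50 counts in 3 libraries.

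Genes of mitosis fell. Of 17 mitotic entry genes 15 were called down and 1 up (2 up under upper quartile or library total scaling or with at least 50 counts in 3 libraries), with a median of -1.29, all 12 mitotic kinesins were called down, and of 36 spindle and kinetochore genes 35 were called down, 27 by at least 2-fold, and 1 up. PLK1, the kinase that drives mitotic entry, had 13.5, 12.9 and 12.98 CPM with etoposide and 177, 184 and 183 CPM in controls (-3.79 ± 0.07). CCNB1, the cyclin of that step, had 22.8, 22.9 and 27.2 CPM with etoposide and 209.6, 197 and 209 CPM in controls (-3.08 ± 0.07), and CDC20, an activator of the anaphase-promoting complex, had 43.2, 41.1 and 39.4 CPM with etoposide and 271, 287 and 265 CPM in controls (-2.74 ± 0.06). Every etoposide library lay under every control in these genes. PSRC1, a spindle protein, had 4.06, 2.36 and 3.34 CPM with etoposide and 34.1, 34.4 and 35.3 CPM in controls (-3.41 ± 0.13), AURKA fell by 2.36 and KIF14 by 2.37. Exceptions were PKMYT1, an inhibitory kinase of CDK1, at 159, 151 and 162 CPM with etoposide and 91.8, 99.4 and 95.4 CPM in controls (0.72 ± 0.05), and ESPL1, the gene of separase, at 201, 194 and 199.8 CPM with etoposide and 139.8, 129 and 137 CPM in controls (0.55 ± 0.05); WEE1, another inhibitory kinase of CDK1, was not called (0.09 ± 0.06).

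PLK1 and PSRC1 had the largest falls among mitotic genes whose promoters hold the cell cycle homology region, TTTGAA or TTCGAA, near the start. Capitals mark that element and the CCAAT box (RefSeq, GRCh38.p14). PLK1 lies at chr16:23678639-23678938, plus strand, with CCAAT at -73 and TTTGAA at -29, and PSRC1 at chr1:109283096-109283395, minus strand, with CCAAT at -74 and TTCGAA at -29.
PLK1: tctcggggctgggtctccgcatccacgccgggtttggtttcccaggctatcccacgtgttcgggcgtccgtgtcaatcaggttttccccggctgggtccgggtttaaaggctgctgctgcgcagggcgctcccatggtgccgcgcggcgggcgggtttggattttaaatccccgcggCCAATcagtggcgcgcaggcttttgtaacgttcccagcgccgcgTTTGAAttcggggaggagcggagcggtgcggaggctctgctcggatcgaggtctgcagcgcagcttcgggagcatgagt
PSRC1: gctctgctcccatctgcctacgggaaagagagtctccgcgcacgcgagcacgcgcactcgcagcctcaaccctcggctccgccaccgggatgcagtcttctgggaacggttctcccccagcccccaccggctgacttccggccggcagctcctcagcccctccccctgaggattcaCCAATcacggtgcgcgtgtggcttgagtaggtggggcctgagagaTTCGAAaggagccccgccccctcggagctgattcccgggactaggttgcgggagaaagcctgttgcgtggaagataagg
The homology region, searched on both strands, was found in 6 of 12 mitotic entry promoters, 9 of 12 kinesin promoters and 24 of 30 spindle and kinetochore promoters (80%), against 16.6% of all promoters and 11.0% of those of tested genes. CCAAT was found in 8, 9 and 23 of the same 12, 12 and 30 promoters, against 35.7% of all and 36.9% of those of tested genes.

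Genes of the preceding phases did not move as a block. Of 24 G1/S and E2F genes 11 were called up and 12 down, with a median of -0.15 that became 0.01 under upper quartile scaling. E2F7, a repressor that is itself a p53 target, had 147, 149 and 148 CPM with etoposide and 35.97, 38.9 and 43.5 CPM in controls (1.90 ± 0.06), whereas CCND3, the D cyclin of lymphoid cells, had 380.0, 347 and 372 CPM with etoposide and 1035, 1156 and 1056 CPM in controls (-1.56 ± 0.05), and CDK6, its kinase, had 206, 211 and 211 CPM with etoposide and 699, 822 and 825 CPM in controls (-1.90 ± 0.05). The other D cyclins, CCND1 (1.58, 1.45 and 2.03 CPM with etoposide and 0.282, 0.0619 and 0.278 CPM in controls) and CCND2 (3.22, 3.51 and 3.55 CPM with etoposide and 0.188, 0.464 and 0.487 CPM in controls), rose, with every control under 0.5 CPM. CCNE1 was not called (-0.11 ± 0.11). Of 41 replication genes 32 were called down and 7 up, with a median of -0.51 and 6 lower by at least 2-fold, a number that was 2 under upper quartile or library total scaling. UHRF1, which maintains DNA methylation at the fork, had 295, 272 and 273 CPM with etoposide and 1060.2, 1162 and 1095 CPM in controls (-1.98 ± 0.05), and MCM6, a helicase subunit, fell by 1.07. POLE, the leading strand polymerase, had 701, 656 and 683 CPM with etoposide and 309, 288 and 296 CPM in controls (1.19 ± 0.04), and LIG1, which seals nicks, had 306, 283 and 301 CPM with etoposide and 138, 129 and 121 CPM in controls (1.20 ± 0.05); both rose. The E2F site, TTT followed by 2 bases that are each G or C and then CGC, was found in 8 of 19 G1/S promoters and 17 of 37 replication promoters, against 3.33% of all promoters and 5.35% of those of tested genes. The p53 element, as searched, was found in only 8 of all 27305 promoters (0.0293%). It was found in 0 of 18, 0 of 13 and 0 of 5 promoters of the p53 arrest, apoptosis and excision repair lists. For an element that rare, no match is the likely outcome in any list of such size. The search therefore cannot tell whether these genes hold p53 sites, and sequence outside the promoters was not searched.

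Repair genes moved in both directions by less than the p53 targets. Of 19 damage kinases and checkpoint genes 6 were called up and 11 down, none by as much as 2-fold; under upper quartile or library total scaling 8 were called up, 2 of them by at least 2-fold, and 9 down. ATM, the kinase of double-strand breaks, was not called, at 47.1, 56.5 and 50.6 CPM with etoposide and 50.1, 45.7 and 56.4 CPM in controls (0.03 ± 0.08), and CHEK1, a checkpoint kinase of replication stress, fell by 0.89. H2AFX, the histone that is marked at breaks, rose (0.93 ± 0.05). Of 35 double-strand break repair genes 10 were called up and 21 down. Of end joining genes, LIG4, the ligase, fell to 35.4, 44.8 and 37.6 CPM with etoposide and 141, 115 and 116 CPM in controls (-1.65 ± 0.08). Its partner XRCC4 fell (-1.30 ± 0.11), and the Ku subunit XRCC5 fell to 459, 468 and 458 CPM with etoposide and 1073, 1051 and 1084 CPM in controls (-1.21 ± 0.04). FANCA, of the Fanconi anemia complex, had 178, 172 and 180.3 CPM with etoposide and 78.6, 64.8 and 66.3 CPM in controls (1.35 ± 0.06), and POLQ, the polymerase of microhomology-mediated joining, had 149.9, 158 and 143 CPM with etoposide and 66.6, 59.4 and 65.2 CPM in controls (1.25 ± 0.06). Only 9 of 28 replication-type histone genes had enough reads to be tested, of which 7 were called up and 0 down. HIST2H2BF, HIST1H4E, HIST2H2AC and HIST1H2AC, all called up, had every control under the edge of the filter. They passed it through the etoposide libraries alone, so the count of rises is a description. HIST1H1C had 6.73, 6.78 and 5.22 CPM with etoposide and 2.73, 3.25 and 2.16 CPM in controls (1.16 ± 0.20). With at least 50 counts in 3 libraries 2 genes were called up. Family members are near-identical, so reads may have been split among them.

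MYC, a transcription factor of cell growth, had 286, 265 and 283 CPM with etoposide and 842, 868 and 819.8 CPM in controls, a change of -1.60 ± 0.04. MXD1, which opposes MYC on the shared partner MAX, had 50.9, 56.5 and 56.4 CPM with etoposide and 9.698, 8.89 and 9.04 CPM in controls (2.58 ± 0.09), and MAX itself fell by 0.48. Of 33 ribosome biogenesis genes 19 were called down and 8 up, with a median of -0.21; NCL, the nucleolar protein nucleolin, fell by 0.89 and DKC1, of the pseudouridine synthase complex, by 1.05. The 30 tested ribosomal protein genes stayed within 2-fold, 17 called up and 9 down. Under upper quartile scaling 21 of them were called up and 3 down, and of the biogenesis genes 14 were called up and 15 down.

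Stress pathways separated. Of 23 integrated stress response genes 18 were called up and 5 down, with a median of 1.18. DDIT3, the gene of the pro-apoptotic factor CHOP, had 233, 215 and 223 CPM with etoposide and 16.6, 15.05 and 15.7 CPM in controls (3.84 ± 0.07), PPP1R15A, which ends the block on translation, had 566, 547 and 548 CPM with etoposide and 38.7, 39.4 and 42.9 CPM in controls (3.78 ± 0.05), and ASNS, asparagine synthetase, rose by 1.66 ± 0.06. SESN2, which restrains mTORC1 and is also a p53 target, had 438, 420.0 and 437 CPM with etoposide and 30.98, 38.3 and 35.1 CPM in controls, and VLDLR, a lipoprotein receptor, fell (-1.38 ± 0.05). In the unfolded protein response, 11 of 20 were called up and 6 down. HSPA5, the chaperone BiP of the endoplasmic reticulum, had 2242, 2182 and 2191 CPM with etoposide and 945, 972 and 984 CPM in controls (1.19 ± 0.04), and HERPUD1, a piece of the degradation machinery there, had 274, 277 and 278 CPM with etoposide and 98.5, 96.97 and 92.2 CPM in controls (1.53 ± 0.05); ATF6, a sensor, fell (-0.57 ± 0.06). The number higher by at least 2-fold was 8, and 5 without a filter, without control replicate 1 or without control replicate 3. Most tested heat shock genes went the other way, with 11 of 17 called down and 4 up. The highest change in this list was 0.70, that of HSPB1. HSPA1A, HSPA1B and HSPA4L had too few reads to be tested, so the list says nothing about them. HSP90AA1, the inducible HSP90, had 1941, 1971 and 1912 CPM with etoposide and 4006, 3971 and 3946 CPM in controls (-1.03 ± 0.04), and HSPD1, the mitochondrial chaperonin, had 645, 660.1 and 642 CPM with etoposide and 1529, 1512 and 1515 CPM in controls (-1.23 ± 0.04).

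Interferon-stimulated genes split, with 13 of 32 called up and 15 down, and a median of -0.14 that was 0.03 under upper quartile scaling and 0.01 under library totals. IFIT1, an RNA-binding antiviral protein, had 0.728, 0.666 and 0.2901 CPM with etoposide and 8.94, 8.27 and 9.95 CPM in controls (-3.95 ± 0.25), and OAS2, which makes the activator of RNase L, had 11.2, 9.44 and 10.1 CPM with etoposide and 35.5, 41.6 and 38.9 CPM in controls (-1.92 ± 0.10). IRF7, the regulator of interferon genes, had 79.3, 79.7 and 83.1 CPM with etoposide and 22.1, 24.4 and 21.2 CPM in controls (1.82 ± 0.07), and TRIM22, also a p53 target, had 457, 485 and 487 CPM with etoposide and 91.3, 80.2 and 85.2 CPM in controls (2.49 ± 0.05). Among 8 DNA-sensing genes, MB21D1, the sensor cGAS, rose to 15.8, 18.1 and 16.8 CPM with etoposide and 6.12, 8.36 and 7.58 CPM in controls (1.16 ± 0.13), IFI16, a nuclear DNA sensor, fell by 0.89, and TMEM173, the adaptor STING, was not called (-0.33 ± 0.21).

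Most glycolysis and respiratory chain genes fell, while the cholesterol and redox lists were mixed. Of 23 glycolysis genes 18 were called down and 3 up, with a median of -0.74. HK1, hexokinase 1, had 58.1, 55.3 and 56.7 CPM with etoposide and 142, 148 and 145 CPM in controls (-1.36 ± 0.06), and LDHA, lactate dehydrogenase A, had 407, 443 and 418 CPM with etoposide and 964, 946 and 946 CPM in controls (-1.17 ± 0.04). Of 30 respiratory chain genes 22 were called down and 4 up, 1 of them by at least 2-fold, SDHD, an anchor of complex II, at 28.6, 28.1 and 25.2 CPM with etoposide and 81.5, 79.3 and 71.9 CPM in controls (-1.50 ± 0.07). Of 21 cholesterol genes 11 were called up and 6 down. In the redox list 10 of 16 were called down and 6 up. GCLM, of glutathione synthesis, fell by 1.38, and FTH1, the ferritin heavy chain, rose to 278, 285 and 279 CPM with etoposide and 117, 119 and 111 CPM in controls (1.28 ± 0.05). HEXIM1, an inhibitor of the elongation factor P-TEFb, had 175, 180.3 and 185 CPM with etoposide and 38.6, 35.3 and 35.8 CPM in controls (2.31 ± 0.06), and CDK9, the kinase of P-TEFb, fell by 0.67; this elongation list had 10 of 18 called up and 6 down, the second number being 3 under upper quartile scaling and 4 under library totals. Of 18 long non-coding and microRNA host genes 14 were called up and 4 down; 2 were called down under upper quartile or library total scaling, with at least 50 counts in 3 libraries, or without etoposide replicate 1. NEAT1, the scaffold of paraspeckles, had 603, 636 and 592 CPM with etoposide and 93.9, 57.4 and 70.7 CPM in controls (3.08 ± 0.20), SNHG12, a snoRNA host, had 219.8, 221 and 216 CPM with etoposide and 33.4, 26.2 and 25.4 CPM in controls (2.98 ± 0.07), and DLEU1 fell by 1.65. Of 16 genes often used as references, 5 were called up and 11 down, YWHAZ by the most (-1.48 ± 0.05), with ACTB at 0.21 ± 0.04 and GAPDH at -0.57 ± 0.04.

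**Figure D2:**
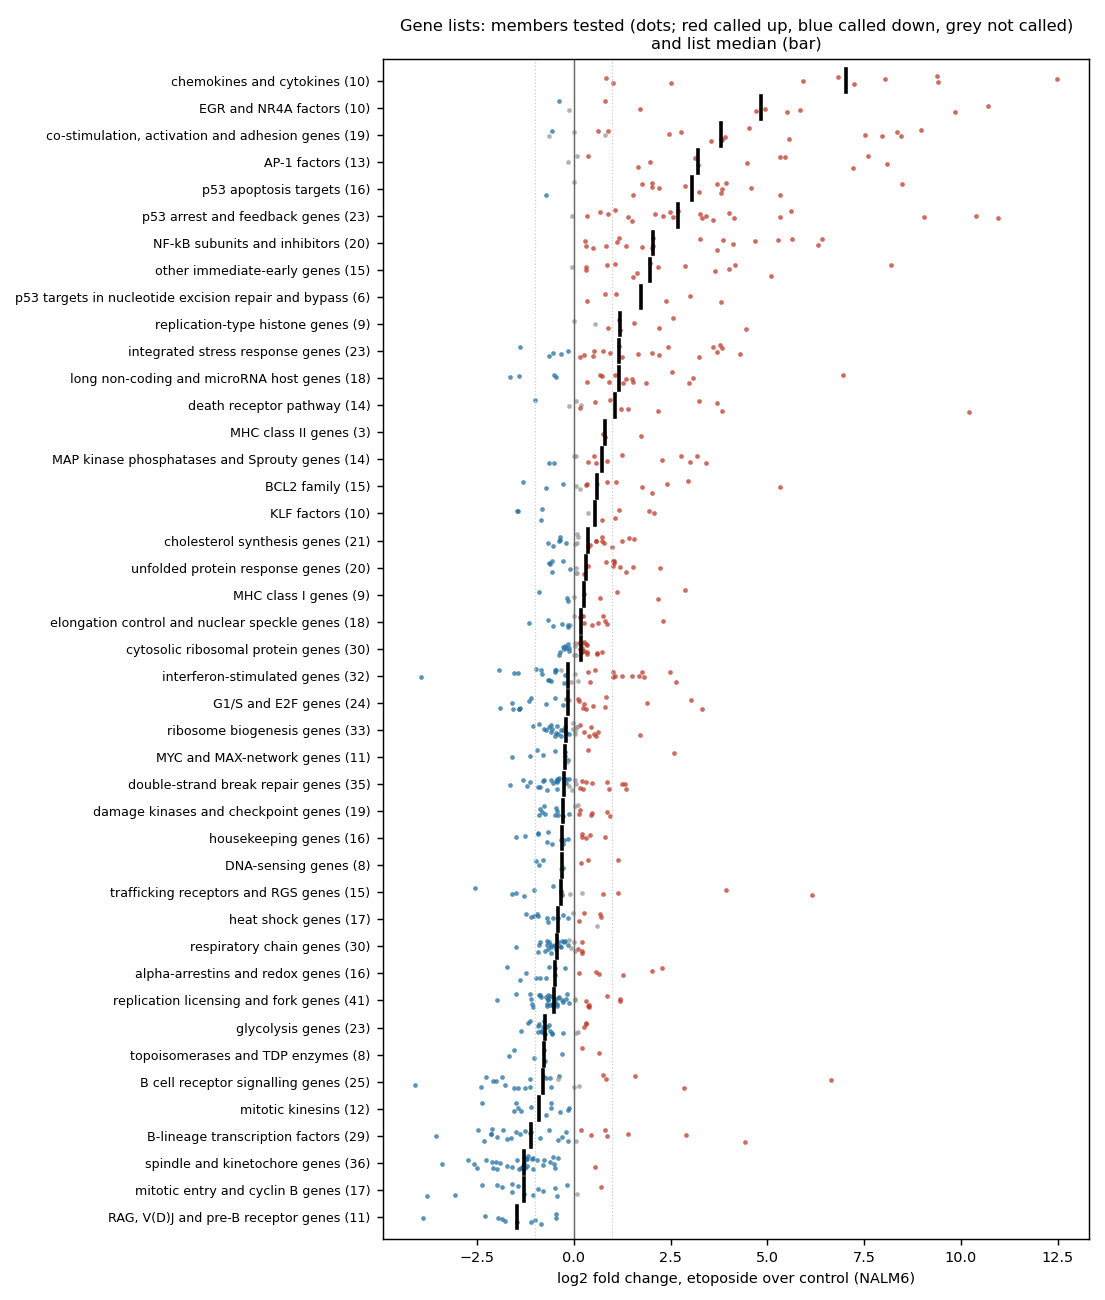
Log2 fold change, etoposide over control, of every tested member of each gene list in NALM6 (dots; red called up, blue called down, grey not called), with the number tested in parentheses and the list median as a bar; dotted lines mark 2-fold. Medians run from -1.46 for the V(D)J and pre-B receptor genes to 7.04 for the 10 tested chemokines and cytokines, or 6.22 with genes of no control read at their lower bound.

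Outside these lists, the genes with the largest rises that every library bore out included GALNT9, a glycosyltransferase, with 13.3, 10.7 and 13.7 CPM in the etoposide libraries and no read in controls, at least 239-fold higher. MYEOV, MMP2, CHRNA6 and ANKRD65 also had no control read and were at least 171-fold, 147-fold, 129-fold and 126-fold higher. MMP2 encodes a gelatin-cleaving protease and CHRNA6 a subunit of the nicotinic acetylcholine receptor. KLKP1 is a pseudogene, at least 124-fold higher, and its reads may belong to related kallikrein genes. The largest falls outside the lists were RNF5P1, a pseudogene whose reads may be those of its parent (2.06, 3.27 and 2.54 CPM with etoposide and 42.7, 44.6 and 43.7 CPM in controls), TMEM119, PTGER2, a prostaglandin E2 receptor, EVI2B and SPTLC3, a subunit of an enzyme of sphingolipid synthesis. PTGER2 had 0.728, 1.39 and 1.02 CPM with etoposide and 9.604, 9.69 and 11.7 CPM in controls (-3.29 ± 0.22), and EVI2B had 4.06, 5.08 and 4.06 CPM with etoposide and 41.2, 37.9 and 39.4 CPM in controls (-3.15 ± 0.11). TMEM119 and SPTLC3 changed by -3.39 ± 0.25 and -3.05 ± 0.32, and in these 4 genes no etoposide library reached a control. Among falling genes with the highest control CPM were also CLTC, the clathrin heavy chain, at 383, 377 and 378 CPM with etoposide and 1427, 1538 and 1640.0 CPM in controls (-2.02 ± 0.05), HNRNPA2B1, an RNA-binding protein, at -1.09 ± 0.04, and TUBA1B, an alpha-tubulin, at -1.35 ± 0.05.

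In all, 75 tested genes had no read in any control. All 75 were called up, which is a description, since such genes pass the filter through the etoposide libraries alone. In each of these 75 the lowest NALM6 etoposide library exceeded 1% of the highest JURKAT or 697 etoposide library, and in 14 it exceeded those libraries outright. The filter kept such genes only where etoposide libraries had enough reads, so the 1% outcome was largely fixed in advance and is also a description. Over all listed genes, 572 had a read in every etoposide library and none in a control, while 22 had a read in every control and none in an etoposide library.

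Fold change was also read against the span of the gene in the genome, the distance that transcription has to cross. Spans were found for 12048 of the 12589 tested genes (95.7%). The median log2 fold change was 0.29 over 2473 genes under 10 kb, 0.04 over 3441 genes of 10 to 30 kb, -0.12 over 3963 genes of 30 to 100 kb, -0.19 over 1817 genes of 100 to 300 kb and -0.36 over 354 genes over 300 kb. The order ran with span, but the quartiles overlapped widely, for example -0.26 to 1.23 under 10 kb and -0.93 to 0.52 over 300 kb. Of genes under 10 kb 29.5% were called up by at least 2-fold and 5.78% down, and of those over 300 kb 17.5% were called up and 22.0% down. Medians for the same bins were 0.28 and -0.55 at the 2 ends in 697, and 0.11 and -0.73 in RAMOS.

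**Figure D3:**
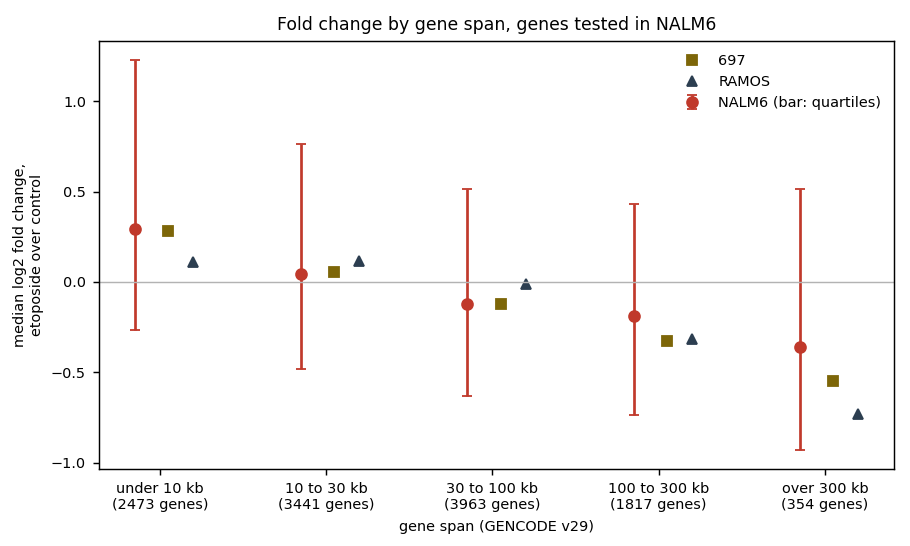
Median log2 fold change, etoposide over control, of genes tested in NALM6, by gene span (circles, with bars from the lower to the upper quartile), with the medians of the same genes in 697 (squares) and RAMOS (triangles). In NALM6 the medians step down from 0.29 under 10 kb to -0.36 over 300 kb.

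The response of NALM6 was set against those of 697 and of RAMOS, a mature B cell line whose etoposide and control libraries shared 1 pool. Contrasts of the etoposide effects in 1 edgeR fit of all 34 libraries called 5309 of 17008 genes (31.2%) different between NALM6 and 697, and 8667 (51%) between NALM6 and RAMOS. Larger and smaller below mean a log2 change in NALM6 above or below that of the other line, sign included, so a deeper fall counts as smaller. Beside 697, with its same split of pools, p53 arrest genes had a median of 2.69 in NALM6 and 3.19 in 697, with 6 of 23 called larger and 6 smaller in NALM6. Beside RAMOS, 18 of 19 such genes were called larger in NALM6, with medians of 2.49 and 0.05. GADD45A was one of them, with a rise in NALM6 (4.14 ± 0.06) and a fall in RAMOS to 12.6 CPM with etoposide against 29.8 CPM in controls, a difference of effects of 5.36 (SE 0.12). For G1/S genes the medians were -0.23 in NALM6 and 0.72 in RAMOS, and 18 of 22 were called smaller in NALM6. Replication genes had medians of -0.51 in NALM6 and 0.59 in RAMOS, with 34 of 41 called smaller in NALM6, while against 697 (median -1.01) 33 of 41 were called larger. Respiratory chain genes were called smaller in NALM6 than in RAMOS for 25 of 30, with medians of -0.43 and 0.09.

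List members were counted where the calls in NALM6 and the other line were opposite and the difference of effects was called too. This rule took 45 members against 697 and 165 against RAMOS. The share of such opposite calls over all tested genes was not computed, so both counts are a description. VAV2 differed most from both, rising in NALM6 to 11.2 ± 0.98 CPM with etoposide against 0.0850 ± 0.0814 CPM in controls (SD, n = 3 each), while it stood at 70.7 CPM with etoposide against 85.4 CPM in controls of 697. BMF rose in NALM6 and fell in 697 to 2.72 CPM with etoposide against 6.81 CPM in controls, a difference of effects of 3.66 (SE 0.20). FOSL2, an AP-1 factor, fell in 697 (65.6 CPM with etoposide, 124 CPM in controls) and rose in NALM6 (1.96 ± 0.10). IRF8, a factor of B and myeloid cells, fell in NALM6, with 1.15, 1.03 and 1.02 CPM with etoposide and 4.14, 4.92 and 4.66 CPM in controls, and rose in 697 to 51.9 CPM with etoposide against 22.8 CPM in controls. IFIT2 likewise fell in NALM6 (-0.49 ± 0.14) and rose in 697. POU2F2 fell in RAMOS to 174 CPM with etoposide against 356 CPM in controls, a difference of effects of 5.43 (SE 0.15).

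**Figure D4:**
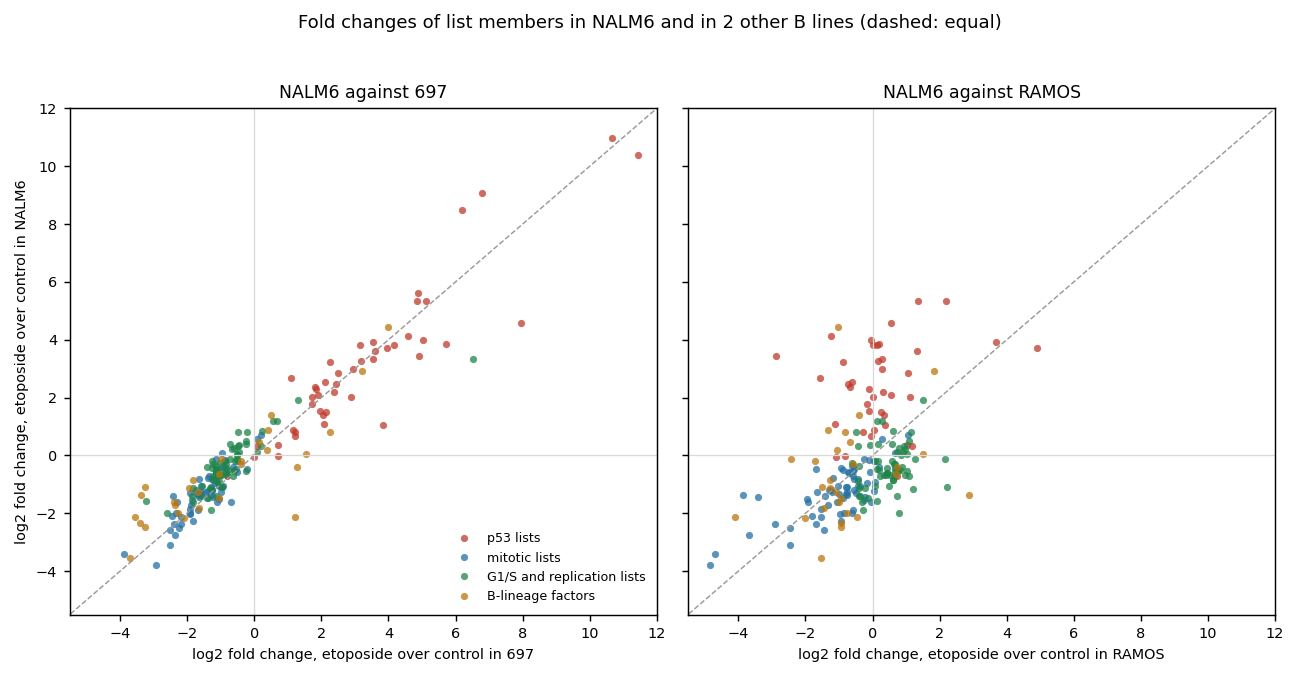
Log2 fold change, etoposide over control, of list members in NALM6 (vertical axis) against 697 (left) and RAMOS (right), coloured by list group; the dashed line marks equal change. Most p53 list members lie above the line for RAMOS, where most G1/S and replication members lie below it; for 697 the p53 members lie on both sides of the line.

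Calls of at least 2-fold were compared with the lines whose etoposide and control libraries lay within 1 pool, as each line has its own controls. Of the genes called up in NALM6, RAMOS shared 455, which was 17.6% of the NALM6 list and 54.6% of the RAMOS list, and of those called down it shared 274 (22.0% and 25.8%). JURKAT, a T cell line, called 37 genes up and 62 down, of which NALM6 shared 14 (37.8%) and 40 (64.5%). The myeloid lines THP1 and U937 called 123 and 250 genes up, of which NALM6 shared 62 (50.4%) and 96 (38.4%). Of the NALM6 rises, 85 were called down in RAMOS, 4 in JURKAT, 5 in THP1 and 32 in U937. With 697, which has the same split of pools, NALM6 shared 70.1% of its rises and 58.5% of its falls. In the authors' deposited table for NALM6, 10991 of the 12570 genes found there (87.4%) had the sign computed here. Among these 12570, 10247 were called here and 8086 in the authors' table at an adjusted p under 0.05. Both called 7461, which was 72.8% of the calls made here, and 7430 of those 7461 had the same sign.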

How the data were processed

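RNA-seq counts of 6 NALM6 libraries were analysed. Whole-number read counts per gene symbol are as the authors deposited them, 1 file per library, with no line for unassigned reads; HISAT, HTSeq, DESeq2 and hg19 are named in the submitters' processing notes, without versions or strand. The authors' deposited NALM6 table gives, per the file headers, adjusted p-values and log2 fold changes, and only its signs and calls were read.

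In edgeR 4.0.16 (R 4.3.3), filterByExpr with a minimum count of 10 chose the genes, which were scaled by TMM, and tested by the robust quasi-likelihood F test, two-sided, with Benjamini-Hochberg adjustment over all tested genes (limma 3.58.1 and DESeq2 1.42.0 were loaded for alternatives). CPM use TMM library sizes, and changes are log2 fold changes ± standard error. Replicates of a group differed by more than sampling noise (chi-square per degree of freedom 2.11 to 6.23). Contrasts between lines used 1 fit of all 34 libraries. Scripts were tested on simulated data. Floors and intervals (95%) cover counting error only, since PCR reads without molecular identifiers are not independent. Gene spans came from GENCODE v29, and promoters from RefSeq on GRCh38.p14; no hg19 coordinates are given.

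Genes were named by rule: the 12 highest and 12 lowest fold changes among called genes with a mean log2 CPM of at least 1 and no overlap between groups (antisense, readthrough and unnamed loci passed over), the 6 highest-CPM risers and fallers of at least 2-fold, up to 6 largest called changes and 2 against the median per list, 7 fixed genes, and 5 opposite calls per contrast. A few items that the rule takes are not reported here. A few other list members are named for their role. The gene lists and rules were chosen with earlier results of these data known. Without a stated strand, overlapping and antisense genes cannot be told apart. Alternatives were RLE, upper quartile and total scaling, no filter and a filter of 50 counts in 3 libraries, DESeq2, glmTreat, a replicate block, and leaving out each library.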

Additional observations from a re-analysis of the deposited data

Results flagged for a closer look

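For 5 list members the etoposide effect differed between NALM6 and 697 by a contrast in the joint edgeR fit. They were chosen as the largest differences among opposite calls whose contrast was called. That the contrast was called is thus a condition of the choice. The differences (NALM6 minus 697, log2) were 6.89 for VAV2, 3.66 for BMF, -3.35 for IRF8, 2.85 for FOSL2 and -1.82 for IFIT2, with adjusted p of 4.0e-30, 1.3e-24, 3.6e-23, 2.9e-30 and 3.0e-07. The pools of the etoposide and control libraries differed in both lines.

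Against RAMOS, whose groups shared 1 pool, the same rule gave differences (NALM6 minus RAMOS, log2) of 6.86 for VAV2, 6.26 for SFN, 5.45 for ALDH1L2, 5.43 for POU2F2 and 5.36 for GADD45A, with adjusted p of 3.1e-31, 5.7e-10, 4.8e-10, 1.1e-27 and 6.4e-48. SFN, the gene of a 14-3-3 protein, averaged 0.993 CPM with etoposide against 0.0667 CPM in controls of NALM6, and 0.532 CPM with etoposide against 3.75 CPM in controls of RAMOS. ALDH1L2, a mitochondrial folate enzyme, averaged 1.18 CPM with etoposide against 0.0450 CPM in controls of NALM6, and 0.491 CPM with etoposide against 1.07 CPM in controls of RAMOS. Both rest on few reads. The pool split in NALM6 moves with these differences, and its part in them was not tested.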

How the results depend on the processing

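The 4 counts of NALM6 calls and both contrast counts stayed within 1.5 times of the main value under every alternative run. Leaving out each library in turn gave 5058 to 5324 genes up and 4906 to 5110 down, 2645 to 2848 up and 1268 to 1322 down by at least 2-fold, 4515 to 5111 calls against 697 and 8178 to 8514 against RAMOS. Upper quartile scaling moved the median of all genes to 0.18 and library totals to 0.16 (log2), so small changes are relative to the scaling; they gave 6126 up and 4159 down, and 6014 up and 4248 down. A test against 2-fold itself called 1980 up and 866 down. A replicate block gave 5089 rises and 4971 falls, 2581 and 1242 at 2-fold or more, and the contrasts called 4503 and 8327. Same-numbered deviations correlated at -0.02, -0.07 and 0.02, and not every sample correlated best with its own number. The labels name no pairs, and with so few libraries these values cannot settle whether the numbers mark any.

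Genes whose sign reversed were at changes near 0. APAF1 was 0.014 (RLE), 0.162 (upper quartile), 0.144 (totals), 0.073 (50 counts), 0.015 (DESeq2) and 0.00288 (block). Under upper quartile and totals, B2M was 0.026 and 0.0076, CCNE1 0.0498 and 0.032, and CYFIP2 0.115 and 0.0972, and with 50 counts CYFIP2 was 0.027. Without a filter ATM was -0.016 and DUSP6 -0.027. Leaving out 1 library gave -0.0575 to 0.051 for APAF1, -0.056 to 0.0956 for ATM, -0.00699 to 0.024 for DUSP6 and -0.011 to 0.119 for BCL2L1. ERAP1 and B2M each lost their call in 3 settings, upper quartile, totals and 50 counts; the cause was not tested. All 10 differences between lines kept sign and call in 144 of 144 refits. At deposited depth the mean number of genes with a read was 16034 with etoposide and 14351.3 in controls. With 50 counts in 3 libraries the span medians were 0.15, -0.03, -0.18, -0.25 and -0.45, short to long.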
